A study of Homo sapiens with 12 samples.

Results

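The genes described here are 10 genes of early T-cell development in the thymus, TCF7, LEF1, BCL11B, RAG1, RAG2, PTCRA, DNTT, CD1A, TOX and TCF12, chosen by symbol in the platform annotation. Of the 10 listed genes, 9 were named by a probe set of their own and are among the 18417 genes tested; TCF7 was not analysed here. Their signal was read in side population (SP) cells, which pump out the DNA dye Hoechst, and in main population (MP) cells, which retain it. Flow sorting took both from each of 4 human lines in log phase growth. The lines derive from anaplastic large cell lymphoma (ALCL), a tumour of T-cell origin, and are known to carry the NPM1-ALK fusion. SUDHL-1 gave 3 SP and 3 MP arrays, and SUPM2, Karpas299 and DEL gave 1 SP and 1 MP array each, 12 arrays in all. The labels name no agent other than the dye, no thymocytes were among the samples, and each line stands for 1 tumour. The labels do not say that the SUDHL-1 replicates came from separate cultures. The p-values of SP against MP in SUDHL-1 thus measure the spread between its arrays, which may be technical. Tests on 1 SP minus MP difference per line measure the spread of these differences between lines. The other tests pool the spread within lines after a shared population effect. Outside SUDHL-1 that spread comes from 1 SP and 1 MP array of each line.

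Progenitors that reach the thymus become T cells under NOTCH signals, which switch on TCF7 and GATA3 and, later, BCL11B, the factor that closes other lineages. TCF7 and LEF1 are related DNA-binding proteins that act with β-catenin or with TLE corepressors, and TCF12 (HEB) is an E protein that binds E boxes with its partner TCF3. RAG1 and RAG2 cut antigen receptor genes, DNTT adds bases to the cut ends, and PTCRA pairs with the first rearranged T-cell receptor chain. CD1A marks cortical thymocytes, and TOX is needed for the CD4 lineage in mice.

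Signal is given as the authors' RMA values on the log2 scale, where a difference of 1 is a doubling. Array medians over all genes were 5.25 to 5.37 for SUDHL-1 and 5.76 to 5.80 for the other lines, so line and array set cannot be told apart for SUDHL-1. In the 3 comparisons that set SUDHL-1 against SUPM2, Karpas299 and DEL, the median of all genes shifted by -0.37, -0.31 and -0.28. All 10 measured ALCL markers, among them TNFRSF8 (CD30), lay above the background range on every array, whereas 1 of 8 measured B-cell markers, 3 of 10 Langerhans and myeloid markers and 2 of 10 stromal and epithelial markers did. The background range used here is that of 361 olfactory receptor genes, which lymphoid cells are not known to use, with a 95th percentile of 4.38 to 4.68 on SUDHL-1 arrays and 4.91 to 5.20 on the others. Bulk arrays cannot tell fewer cells with a transcript from less transcript per cell.

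Against that background, 3 of the 9 measured genes lay above the 95th percentile on all 12 arrays, namely BCL11B, PTCRA and TCF12. LEF1 did so on 8 arrays and TOX on 2, both of Karpas299. The remaining 4 genes, RAG1, RAG2, DNTT and CD1A, were above it on no array, so the signal of the recombination genes and CD1A could not be told from this background. With 68 keratin-associated protein genes as background, TCF12 alone was above the range on all arrays, LEF1 was on 6 and TOX on 1. BCL11B and PTCRA were above that range on no array.

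**Figure D1:**
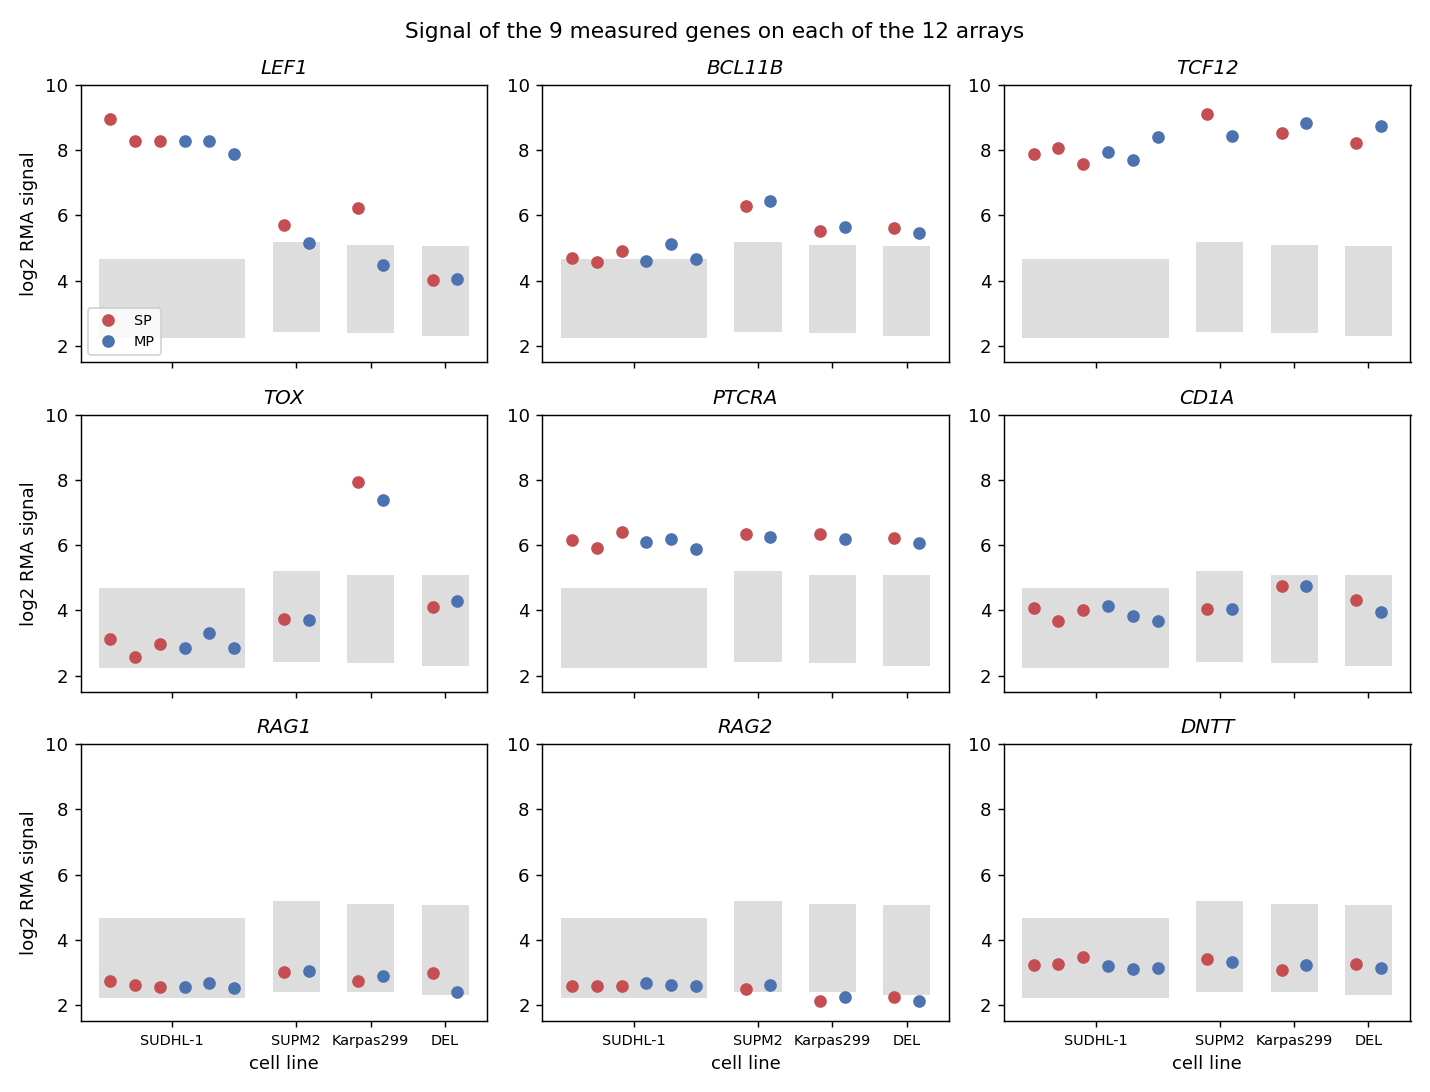
Log2 RMA signal (vertical axis) of the 9 measured genes on each of the 12 arrays, by cell line, with SP arrays (red) left of MP arrays (blue). Grey boxes run from the lowest 5th to the highest 95th percentile of olfactory receptor genes on a line's arrays; LEF1 is high in SUDHL-1 and TOX in Karpas299, and RAG1, RAG2 and DNTT lie in or below the boxes.

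LEF1, the relative of TCF7 that is used from the double-negative stage onward, was higher in SUDHL-1 than in each of the other lines. In SUDHL-1, LEF1 had 8.96, 8.29 and 8.30 on the SP arrays and 8.29, 8.27 and 7.90 on the MP arrays. In SUPM2 it had 5.70 on the SP array and 5.16 on the MP array. In Karpas299 it had 6.22 on the SP array and 4.47 on the MP array. In both lines the SP value was above the background range and the MP value within it. In DEL, LEF1 had 4.02 on the SP array and 4.04 on the MP array, both inside the background range. Differences from these lines are thus measured partly against signal at or near background. Every SUDHL-1 array was above every array of the other lines. Of all genes, 14.9%, 11.9% and 11.1% were called higher in SUDHL-1 than in SUPM2, Karpas299 and DEL. How many genes separate the arrays in this way was not counted.

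In limma's fit of all 12 arrays, the LEF1 signal of SUDHL-1 was higher than that of SUPM2 by 2.90 ± 0.31 (SE, adjusted p = 3.07e-05). It was higher than that of Karpas299 by 2.99 ± 0.31 (adjusted p = 3.42e-05), or by 2.27 to 3.70 with 1 array left out in turn. It was higher than that of DEL by 4.30 ± 0.31 (adjusted p = 3.19e-06). The median of all genes shifted the other way in these comparisons, so the differences relative to it are larger. SUPM2 and Karpas299 are neighbours in this order whose LEF1 did not differ beyond the spread, with a difference of 0.08 (95% interval -0.75 to 0.92). SUPM2 was higher than DEL by 1.40 (adjusted p = 0.0463), a call lost when only the 6 arrays of SUPM2, Karpas299 and DEL were fitted (adjusted p = 0.155), after quantile normalization (1.33, adjusted p = 0.0501), after centring (1.33, adjusted p = 0.0640) and when either SUPM2 array, either DEL array or any of 5 of the SUDHL-1 arrays was left out, with differences of 1.05 to 1.74. Karpas299 set against DEL gave 1.31 and missed the threshold (adjusted p = 0.0798), which it passed without the Karpas299 MP array (2.03, adjusted p = 0.0119).

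BCL11B, the commitment factor, had its lowest signal where LEF1 was highest. It had 4.69, 4.58 and 4.93 on the SUDHL-1 SP arrays and 4.60, 5.13 and 4.65 on the SUDHL-1 MP arrays. In SUPM2 it had 6.29 on the SP array and 6.45 on the MP array. In Karpas299 it had 5.51 on the SP array and 5.63 on the MP array, and in DEL 5.60 on the SP array and 5.47 on the MP array. On the deposited scale all 6 SUDHL-1 values were below all 6 values of the other lines. They were close to the upper edge of the background range. SUDHL-1 arrays also had lower medians over all genes (5.25 to 5.37 against 5.76 to 5.80). Of all genes, 42.5%, 36.6% and 33.8% were called lower in SUDHL-1 than in SUPM2, Karpas299 and DEL. How many genes separate the arrays in this way was not counted.

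The BCL11B signal of SUDHL-1 was lower than that of SUPM2, with a difference of -1.61 ± 0.17 (SE, limma adjusted p = 2.85e-05). Against Karpas299 the difference was -0.81 ± 0.17 (adjusted p = 0.00292), and -0.46 after quantile normalization. Against DEL it was -0.77 ± 0.17 (adjusted p = 0.0041), a call lost when the arrays were quantile normalized again (-0.41, adjusted p = 0.0649) or centred on their medians (-0.43, adjusted p = 0.0538), and without the DEL SP array (-0.65, adjusted p = 0.0767). SUPM2 was higher than Karpas299 by 0.80 (adjusted p = 0.0317) and higher than DEL by 0.84 (adjusted p = 0.0316). Both calls were lost in the fit of the 6 arrays of these lines (adjusted p = 0.0725 and 0.0793) and when any array of the lines compared was left out, with differences of 0.74 to 0.86 from Karpas299 and 0.72 to 0.95 from DEL. Karpas299 and DEL did not differ beyond the spread (0.04, 95% interval -0.42 to 0.49).

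LEF1, BCL11B and PTCRA are shown by the 250 bases before their start site. LEF1 and BCL11B were picked because, on the deposited scale, the SUDHL-1 arrays stood above all others for LEF1 and below them for BCL11B. PTCRA is set beside them because its signal differed little between lines. The sequences are from RefSeq (build GRCh38.p14), and 9 of the 10 listed genes had an entry, 6 of them with 1 start site. Capitals mark the E box CANNTG, the letters that TCF12 and other E proteins bind, which reads the same on both strands. LEF1 lies at chr4:108166302-108166551 (minus strand), BCL11B at chr14:99272198-99272447 (minus strand) and PTCRA at chr6:42915803-42916052 (plus strand).
LEF1: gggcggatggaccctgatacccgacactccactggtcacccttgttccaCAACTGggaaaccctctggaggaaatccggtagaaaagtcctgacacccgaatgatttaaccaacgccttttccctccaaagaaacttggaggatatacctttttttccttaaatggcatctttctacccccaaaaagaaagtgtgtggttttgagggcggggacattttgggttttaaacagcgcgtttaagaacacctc
BCL11B: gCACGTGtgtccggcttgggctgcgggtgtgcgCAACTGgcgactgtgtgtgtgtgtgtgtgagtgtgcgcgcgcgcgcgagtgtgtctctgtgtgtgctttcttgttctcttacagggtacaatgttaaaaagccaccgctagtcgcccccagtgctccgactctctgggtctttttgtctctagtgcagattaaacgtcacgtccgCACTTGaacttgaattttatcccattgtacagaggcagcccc
PTCRA: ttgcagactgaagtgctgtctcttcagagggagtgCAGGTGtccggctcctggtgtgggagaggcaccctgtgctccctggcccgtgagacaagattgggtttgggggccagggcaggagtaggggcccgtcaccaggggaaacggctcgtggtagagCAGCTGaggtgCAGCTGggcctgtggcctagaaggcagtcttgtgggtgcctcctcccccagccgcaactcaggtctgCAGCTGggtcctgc
The LEF1 window held 1 E box, that of BCL11B 3 and that of PTCRA 4. Of 35116 promoter windows of the same length, 61.8% held at least 1, so a match in itself sets no gene apart. The core CTTTGA of TCF and LEF sites, sought on both strands, was in none of the 3 windows and in 11.2% of all windows, and these matches describe letters, not binding.

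TOX, an HMG-box factor of developing CD4 cells, was high in Karpas299 alone. It had 7.93 on the Karpas299 SP array and 7.37 on the MP array. In SUDHL-1 it had 3.13, 2.57 and 2.96 on the SP arrays and 2.84, 3.30 and 2.85 on the MP arrays. In SUPM2 it had 3.72 on the SP array and 3.70 on the MP array, and in DEL 4.09 on the SP array and 4.29 on the MP array. The 10 arrays of SUDHL-1, SUPM2 and DEL were all within the background range, so the differences from Karpas299 are measured against signal near background.

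The TOX signal of SUDHL-1 was lower than that of Karpas299, with a difference of -4.71 ± 0.21 (SE, limma adjusted p = 9.79e-08). That of SUPM2 was lower than that of Karpas299 (-3.94 ± 0.25, adjusted p = 6.00e-06), and that of Karpas299 was higher than that of DEL by 3.45 ± 0.25 (adjusted p = 2.42e-05). SUPM2 and DEL did not differ beyond the spread (-0.48, 95% interval -1.04 to 0.08). SUDHL-1 was lower than DEL (-1.25, adjusted p = 0.000766) and lower than SUPM2 (-0.77, adjusted p = 0.00916), both differences inside the background range. The call against SUPM2 was lost after quantile normalization (-0.43, adjusted p = 0.130) and after centring (-0.36, adjusted p = 0.174), and missed the threshold without the SUPM2 SP array (-0.76, adjusted p = 0.0686) or the SUPM2 MP array (-0.78, adjusted p = 0.0592).

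TCF12, the E protein that works with TCF3 in thymocytes, was well above background in every line. It had 7.88, 8.07 and 7.58 on the SUDHL-1 SP arrays and 7.94, 7.70 and 8.41 on the SUDHL-1 MP arrays. In SUPM2 it had 9.10 on the SP array and 8.42 on the MP array, in Karpas299 8.52 on the SP array and 8.83 on the MP array, and in DEL 8.23 on the SP array and 8.74 on the MP array. The SUDHL-1 values overlapped those of DEL. SUDHL-1 was lower than SUPM2 (-0.83 ± 0.25, SE, limma adjusted p = 0.0156) and lower than Karpas299 (-0.75 ± 0.25, adjusted p = 0.0302). With arrays centred on their medians these differences were -0.42 (adjusted p = 0.239) and -0.41 (adjusted p = 0.265). Without the SUPM2 SP array the difference from SUPM2 was -0.36 (adjusted p = 0.339). The call against Karpas299 was lost without the Karpas299 MP array (-0.63, adjusted p = 0.222), the Karpas299 SP array (-0.86, adjusted p = 0.0925) or the second SUDHL-1 MP array (-0.68, adjusted p = 0.0508).

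PTCRA, the surrogate receptor chain of pre-T cells, had the smallest span of line means among the 9 genes, 0.19. It had 6.15, 5.92 and 6.41 on the SUDHL-1 SP arrays and 6.09, 6.18 and 5.87 on the SUDHL-1 MP arrays. In SUPM2 it had 6.34 on the SP array and 6.24 on the MP array, in Karpas299 6.33 on the SP array and 6.19 on the MP array, and in DEL 6.22 on the SP array and 6.07 on the MP array. The lines overlapped, and none of the 6 line pairs passed the test. No PTCRA value was above the range of the keratin-associated protein genes, so whether the signal is that of a transcript was not settled. In the annotation, 1 probe set names a listed gene together with another gene, and it was not used.

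CD1A, the antigen-presenting molecule of cortical thymocytes, ranged over 3.67 to 4.74. Its highest values were 4.74 on the Karpas299 SP array and 4.74 on the MP array, and SUDHL-1 was lower than Karpas299 (-0.84 ± 0.17, SE, limma adjusted p = 0.0023; -0.50 after centring). SUPM2 set against Karpas299 gave -0.70 (adjusted p = 0.0551), which passed the threshold after quantile normalization (adjusted p = 0.0191), after centring (adjusted p = 0.0258) and with a robust trended variance (adjusted p = 0.0412). All of these values lay within the background range.

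The recombination genes were at background throughout. RAG1 ranged over 2.39 to 3.06, RAG2 over 2.11 to 2.68 and DNTT over 3.07 to 3.46 on the 12 arrays. RAG1 of SUDHL-1 was lower than that of SUPM2 (-0.42, limma adjusted p = 0.0388), a call lost after quantile normalization (-0.19, adjusted p = 0.336), after centring (-0.013, adjusted p = 0.954), and without either SUPM2 array or any of 4 of the SUDHL-1 arrays, with differences of -0.51 to -0.34. RAG2 of SUDHL-1 was higher than that of Karpas299 by 0.42 (adjusted p = 0.0145) and than that of DEL by 0.42 (adjusted p = 0.0151). The RAG2 calls were lost without the Karpas299 SP array (0.36, adjusted p = 0.127), without the Karpas299 MP array (0.47, adjusted p = 0.0664) and without the DEL MP array (0.31, adjusted p = 0.193). For DNTT no line pair passed, but after quantile normalization SUDHL-1 was higher than Karpas299 by 0.35 (adjusted p = 0.0465). With arrays centred SUDHL-1 was higher than Karpas299 by 0.41 (adjusted p = 0.0227) and than DEL by 0.38 (adjusted p = 0.0328). RAG2 of SUDHL-1, centred in the same way, was higher than that of SUPM2 by 0.48 (limma adjusted p = 0.00811), a call not made on the deposited scale.

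Counted over the 9 measured genes, 5 passed in SUDHL-1 against SUPM2, 6 in SUDHL-1 against Karpas299 and 4 in SUDHL-1 against DEL. Of all genes, 57.4%, 48.5% and 45% passed in these comparisons, so the counts are near the background. In SUDHL-1 against SUPM2, 1 of the 9 was higher and 4 were lower, beside 14.9% and 42.5% of all genes. Against Karpas299, 2 were higher and 4 lower, beside 11.9% and 36.6%, and against DEL 2 were higher and 2 lower, beside 11.1% and 33.8%. Of the genes called in SUDHL-1 against SUPM2, 25.9% were higher as deposited, 44.5% after quantile normalization and 56.3% after centring. Against Karpas299 the shares were 24.6%, 44.3% and 52.8%, and against DEL 24.7%, 45.7% and 55.9%, so the direction of small differences with SUDHL-1 depends on the scaling.

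Among the lines with 2 arrays each, SUPM2 against Karpas299 had 2 of 9 called, BCL11B higher and TOX lower, beside 10.7% of all genes (4.12% higher and 6.58% lower). SUPM2 against DEL had 2 of 9 called, LEF1 and BCL11B, both higher, beside 8.34% of all genes (2.74% higher and 5.6% lower). Karpas299 against DEL had 1 of 9, TOX, higher, beside 5.2% (2.25% higher and 2.95% lower). The median difference of the 9 genes lay 0.04 above that of all genes in SUPM2 against Karpas299, 0.19 above in SUPM2 against DEL and 0.10 above in Karpas299 against DEL. Of the 20 called differences of the 9 genes, 10 passed under every alternative in which the gene was tested (TOX and CD1A were not under the filter on dim genes), namely LEF1 in SUDHL-1 against each other line, TOX in Karpas299 against each other line and in SUDHL-1 against DEL, BCL11B in SUDHL-1 against SUPM2 and Karpas299, and CD1A in SUDHL-1 against Karpas299.

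**Figure D2:**
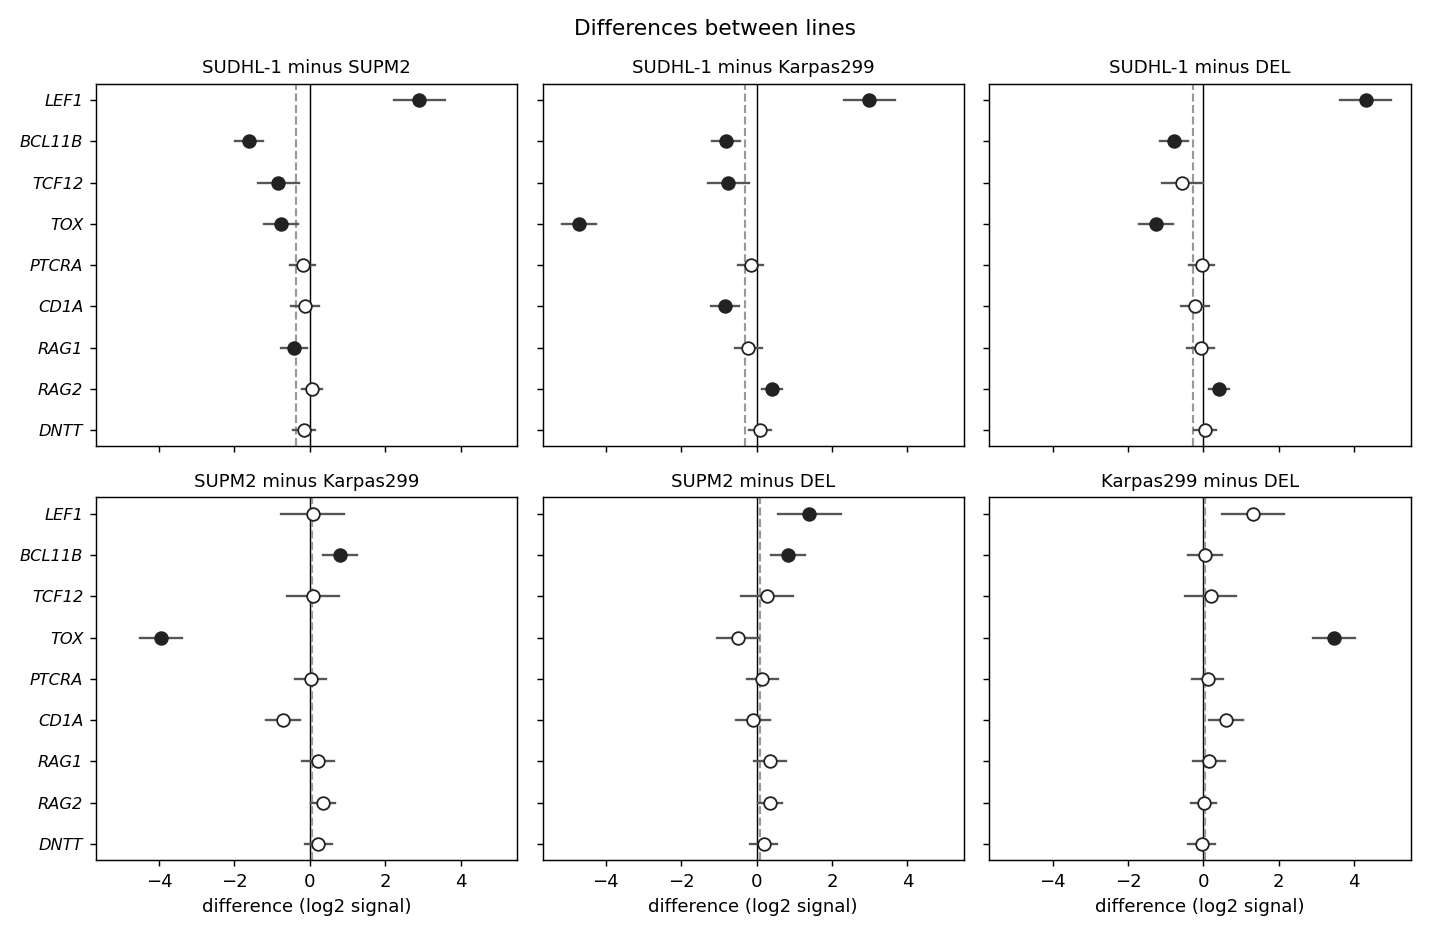
Differences between lines (horizontal axis, log2 signal, first line minus second) of the 9 measured genes with 95% intervals from limma; filled points passed the adjusted threshold of 0.05 and the dashed line is the median of all genes. LEF1 lies far right in the 3 comparisons of SUDHL-1, and TOX lies far from 0 wherever Karpas299 is compared.

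Between the sorted populations no gene passed. In SUDHL-1, SP against MP, 0 of 18417 genes (0%) passed limma's adjusted threshold, with 577 at an unadjusted p under 0.05, none of them among the 9. Over the 4 lines, with 1 SP minus MP difference a line, 0% passed, with 904 unadjusted and none of the 9. For the difference between SUDHL-1 and the mean of the other lines, 0% passed, with 661 unadjusted and none of the 9. The median SP minus MP of the 9 genes was 0.04 in SUDHL-1 and 0.07 over the lines, against -0.000244 and 0.02 for all genes.

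LEF1 had the largest mean SP minus MP difference of the 9 genes. The differences were 0.36 in SUDHL-1, 0.54 in SUPM2, 1.75 in Karpas299 and -0.02 in DEL, so SP was higher in 3 of 4 lines. The mean over lines was 0.66 (95% interval -0.03 to 1.35, unadjusted p = 0.0589, limma adjusted p = 0.918). Without Karpas299 the mean was 0.29, and without the first SUDHL-1 SP array the SUDHL-1 difference was 0.14. In Karpas299 the SP value of 6.22 was above the background range and the MP value of 4.47 within it, from 1 array each and hence with no test.

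PTCRA was higher in SP than in MP in 4 of 4 lines, by 0.11, 0.10, 0.14 and 0.15 in SUDHL-1, SUPM2, Karpas299 and DEL. The mean of 0.13 ± 0.02 (SD of the 4 lines) did not pass (limma adjusted p = 0.918), and within SUDHL-1 the replicates overlapped, with a 95% interval of -0.30 to 0.53. DNTT was the 1 gene of 9 whose SUDHL-1 populations did not overlap, with 3.22, 3.25 and 3.46 in SP and 3.20, 3.10 and 3.14 in MP. Of all genes 7.16% had populations that did not overlap, and all 6 DNTT values were in the background range. TCF12 differed in sign between lines, with SP minus MP of 0.68 in SUPM2 and -0.17, -0.31 and -0.52 in SUDHL-1, Karpas299 and DEL. TOX gave 0.56 in Karpas299, where it was above background, and 0.02, -0.11 and -0.20 in SUPM2, SUDHL-1 and DEL. RAG1 and CD1A gave 0.59 and 0.38 in DEL and lay between -0.15 and 0.05 in the other lines. For BCL11B the differences were between -0.15 and 0.13, and for RAG2 between -0.13 and 0.14.

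Most of the listed genes of the G2 and M phases had higher signal in SP, though none of them passed the test. The list was chosen with earlier results of these data known. Of all 18417 genes, 9194, 10649, 9062 and 9707 were higher in SP in SUDHL-1, SUPM2, Karpas299 and DEL. Of 15 such genes, 15, 13, 14 and 11 were higher in SP in SUDHL-1, SUPM2, Karpas299 and DEL, with medians of 0.66, 0.99, 0.52 and 0.31. PLK1, a mitotic kinase, gave an SP minus MP of 0.89 over the lines and CDK1, the kinase that starts mitosis, 1.01, with limma adjusted p = 0.918 for both. The list's mean signal was 8.57 in SP and 7.67 in MP of SUPM2, 9.34 in SP and 8.76 in MP of Karpas299, and 8.61 in SP and 8.35 in MP of DEL. It ran from 8.12 to 9.64 over the 6 SUDHL-1 arrays, and its part in the differences above was not tested. Of 10 stromal and epithelial markers, 10, 8, 3 and 7 were higher in SP in SUDHL-1, SUPM2, Karpas299 and DEL. Their median differences were 0.10, 0.13, -0.05 and 0.11. Only 2 of these 10 markers were above background on all arrays, and their part was not tested either. Of the dye pumps, ABCG2, ABCB1 and ABCC1, none passed in SP against MP.

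**Figure D3:**
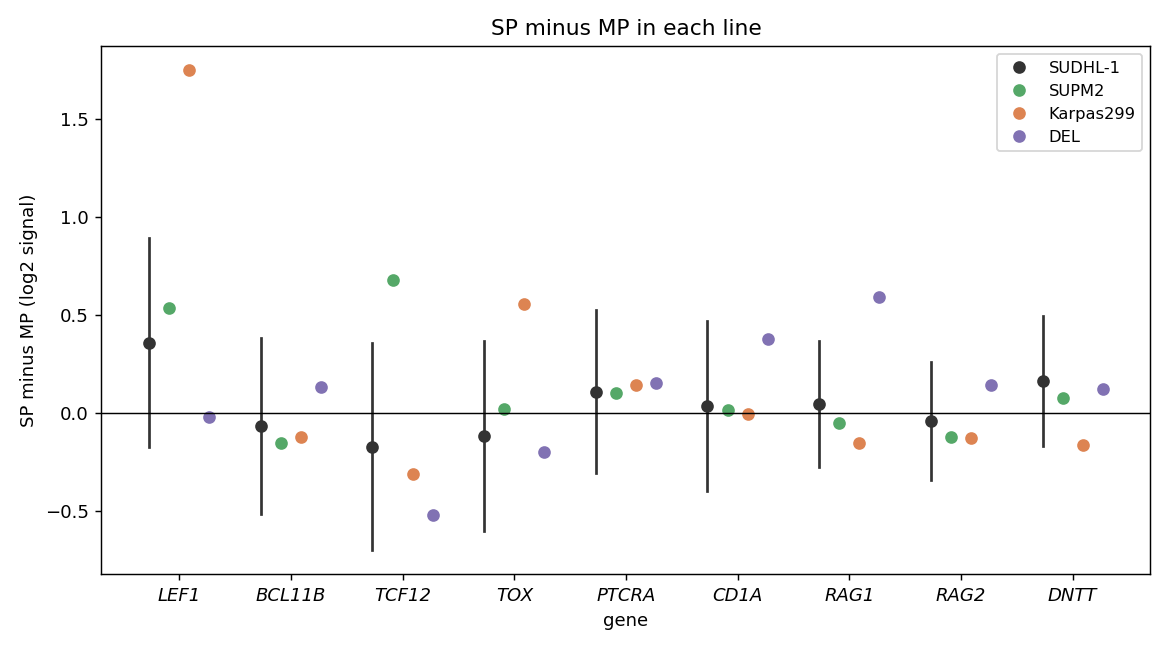
SP minus MP (vertical axis, log2 signal) of the 9 measured genes in each of the 4 lines; the bar on the SUDHL-1 point is limma's 95% interval from 3 SP and 3 MP arrays, and the other lines have 1 array of each. All SUDHL-1 intervals cross 0, and LEF1 in Karpas299 is the highest point at 1.75.

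The other genes of the T-cell programme were read from lists. Of 17 measured T-lineage transcription factors, 11 were above the background range on all arrays, and 12, 11 and 10 passed in SUDHL-1 against SUPM2, Karpas299 and DEL, against 2, 3 and 1 in SUPM2 against Karpas299, SUPM2 against DEL and Karpas299 against DEL. The shares of all genes that passed were 57.4%, 48.5% and 45% in the comparisons of SUDHL-1 and 10.7%, 8.34% and 5.2% in the pairs of the other lines. HHEX, a homeobox factor of blood progenitors, was higher in SUDHL-1, with line means of 6.93 in SUDHL-1, 4.19 in SUPM2, 4.37 in Karpas299 and 4.62 in DEL. Its differences were 2.74, 2.55 and 2.31 (limma adjusted p = 1.13e-06, 2.53e-06 and 5.06e-06), each against signal that was not above background in the other line. MYB, a factor of proliferating progenitors and thymocytes, had line means of 6.59 in SUDHL-1, 8.12 in SUPM2, 9.88 in Karpas299 and 9.46 in DEL. It was lower in SUDHL-1 than in Karpas299 (-3.28) and DEL (-2.87), and lower in SUPM2 than in Karpas299 (-1.75) and DEL (-1.33). The call of MYB in SUPM2 against DEL was lost without either DEL array (-1.31 and -1.35). Between SP and MP over the lines, none of the 17 passed. GATA3 gave 0.61 and MEF2C 0.51 (unadjusted p = 0.0171 and 0.047, limma adjusted p = 0.918 for both). MEF2C was among the genes of low signal left out by the filter on dim genes.

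Among 10 E proteins and their inhibitors, 8 were above background on all arrays. TCF3 (E2A), the partner of TCF12, was lower in SUDHL-1 than in SUPM2 (-1.31), Karpas299 (-2.08) and DEL (-1.27), with limma adjusted p between 5.88e-06 and 0.000164. LMO4, a LIM-only adaptor, was higher in SUPM2 than in Karpas299 by 2.15 (adjusted p = 9.41e-05) and lower in Karpas299 than in DEL (-1.94, adjusted p = 0.000238). ID1, which blocks E proteins from DNA, was higher in SUPM2 than in Karpas299 by 2.14 (adjusted p = 0.00599). In this list 6, 3 and 4 of 10 genes passed in SUDHL-1 against SUPM2, Karpas299 and DEL, beside 57.4%, 48.5% and 45% of all genes. In the pairs of the other lines 3 passed in SUPM2 against Karpas299, 0 in SUPM2 against DEL and 3 in Karpas299 against DEL. The shares of all genes in these pairs were 10.7%, 8.34% and 5.2%.

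Of 13 relatives and partners of TCF and LEF factors, 9, 8 and 7 passed in SUDHL-1 against SUPM2, Karpas299 and DEL. Of all genes, 57.4%, 48.5% and 45% passed there. Of the calls in this list, 3, 1 and 2 were higher in SUDHL-1 and 6, 7 and 5 were lower. Beside them, 14.9%, 11.9% and 11.1% of all genes were called higher and 42.5%, 36.6% and 33.8% lower. AXIN2, a scaffold of β-catenin destruction and a known target of TCF/LEF factors, had line means of 6.31 in SUDHL-1, 5.54 in SUPM2, 5.36 in Karpas299 and 5.21 in DEL. It was higher in SUDHL-1 by 0.76 (limma adjusted p = 0.00306), 0.95 (adjusted p = 0.00112) and 1.10 (adjusted p = 0.000479), and its differences among the other lines did not pass. The call against SUPM2 was lost without the SUPM2 MP array (0.64, adjusted p = 0.0502), and the difference was 1.17 after centring. TCF7L2, a relative of LEF1, was higher in SUPM2 than in Karpas299 by 1.22 (adjusted p = 0.016) and than in DEL by 1.33 (adjusted p = 0.0124), but its signal was not above background on any array of these 3 lines. Both TCF7L2 calls were lost without either SUPM2 array (adjusted p from 0.0721 to 0.0769 and from 0.0591 to 0.0656), the first also without either Karpas299 array (1.22) and the second without the DEL MP array (1.05).

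The end-joining partners of V(D)J recombination, which repair breaks in all cells, were mostly above background, 9 of 11 measured genes on all arrays. PRKDC, the kinase that binds broken ends, had line means of 7.51 in SUPM2, 9.57 in SUDHL-1, 9.85 in Karpas299 and 9.69 in DEL. It was higher in SUDHL-1 than in SUPM2 by 2.06 (limma adjusted p = 0.000114), and lower in SUPM2 than in Karpas299 (-2.35, adjusted p = 0.00115) and DEL (-2.18, adjusted p = 0.00213). HMGB2, which bends DNA for the RAG complex, was higher in SUDHL-1 than in SUPM2, Karpas299 and DEL by 1.34, 0.71 and 1.11 (adjusted p = 3.80e-05, 0.00281 and 0.000186). In this list 10, 4 and 8 of 11 genes passed in SUDHL-1 against SUPM2, Karpas299 and DEL. Of all genes, 57.4%, 48.5% and 45% passed there. Against SUPM2, 7 were higher in SUDHL-1 and 3 lower, beside 14.9% and 42.5% of all genes. In SUPM2 against Karpas299 7 passed, 2 higher and 5 lower, beside 4.12% and 6.58% of all genes. In SUPM2 against DEL 1 passed and in Karpas299 against DEL 2, beside 8.34% and 5.2% of all genes.

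Of 7 relatives of CD1A and TOX, CD1B, CD1C and CD1E were above the background range on no array. TOX2 had line means of 5.65 in SUDHL-1, 5.34 in SUPM2, 7.75 in Karpas299 and 7.87 in DEL, and was lower in SUPM2 than in Karpas299 (-2.41, limma adjusted p = 0.00185) and DEL (-2.52, adjusted p = 0.00172). With the probe sets of TOX2 averaged these differences were -1.05 (adjusted p = 0.0265) and -1.16 (adjusted p = 0.0204), and TOX2 was above background on 1 of the 2 SUPM2 arrays. In DEL, TOX2 was above the background range on both arrays and TOX on neither. CD1D, which presents lipids to T cells, was lower in SUDHL-1 than in Karpas299 (-1.10, adjusted p = 0.000523).

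The thymocyte surface and signalling genes split the lines in several ways. Of 26 measured, 5 were above the background range on all arrays and 6 on none. CD2 was high in SUPM2 alone, with line means of 9.19 in SUPM2 against 3.55 in SUDHL-1, 4.44 in Karpas299 and 4.40 in DEL. CD4 had 9.49 in SUPM2 and 9.60 in Karpas299, against 3.93 in SUDHL-1 and 4.80 in DEL. CD3D, a chain of the receptor complex, had 10.06 in SUDHL-1, 9.10 in SUPM2 and 9.63 in Karpas299, against 5.68 in DEL. CCR7 had 10.40 in Karpas299 and 10.09 in DEL, against 5.39 in SUDHL-1 and 5.81 in SUPM2. IL7R, the cytokine receptor that early thymocytes live on, had 7.96 in DEL and 5.99 in Karpas299, against 2.90 in SUDHL-1 and 3.06 in SUPM2.

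Of these, CD2 was higher in SUPM2 than in Karpas299 by 4.75 and than in DEL by 4.79 (limma adjusted p = 3.14e-07 and 2.01e-07), in both cases against signal that was not above background. CD4 was lower in SUDHL-1 than in SUPM2 (-5.56) and Karpas299 (-5.68), and higher in Karpas299 than in DEL by 4.80 (adjusted p = 9.39e-08, 9.83e-08 and 9.12e-06). The CD4 signal was above background on 0 of 6 SUDHL-1 arrays and on 1 of 2 DEL arrays, so these differences are measured against signal at or near background. CD3D was higher in SUDHL-1 than in DEL by 4.38 and in Karpas299 than in DEL by 3.95 (adjusted p = 5.53e-06 and 0.000267). CCR7 was lower in SUPM2 than in Karpas299 (-4.59) and DEL (-4.28), and IL7R was lower there too (-2.93 and -4.89), with IL7R above background on neither SUPM2 array. CD3E and CD3G, further chains of the receptor complex, were above background on no array. CD247, another such chain, had line means of 8.30 in SUPM2 and 7.56 in Karpas299, against 4.11 in SUDHL-1 and 5.05 in DEL. Counts past the test were 14, 15 and 13 of 26 in SUDHL-1 against SUPM2, Karpas299 and DEL, beside 57.4%, 48.5% and 45% of all genes. They were 9, 9 and 8 in SUPM2 against Karpas299, SUPM2 against DEL and Karpas299 against DEL, beside 10.7%, 8.34% and 5.2%.

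**Figure D4:**
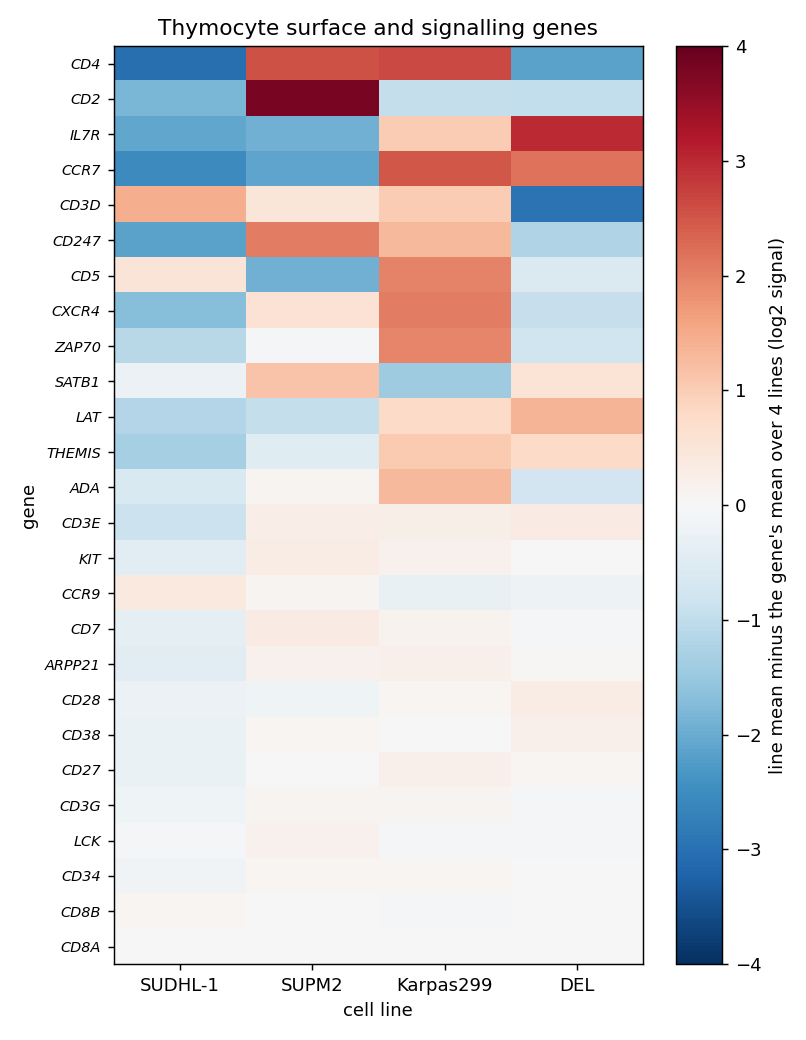
Line means of 26 thymocyte surface and signalling genes, each minus the gene's mean over the 4 lines (colour, log2 signal); genes are ordered by the span of their line means. CD4, CD2, IL7R, CCR7 and CD3D span the widest range, and CD8A the narrowest.

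In the NOTCH list, 7 of 7 measured genes were above background on all arrays. NOTCH1, the receptor that starts the T-cell programme, had line means of 5.68 in SUDHL-1, 5.99 in SUPM2, 6.82 in Karpas299 and 7.88 in DEL. It was lower in SUDHL-1 than in DEL (-2.20, limma adjusted p = 7.64e-05) and lower in SUPM2 than in DEL (-1.90, adjusted p = 0.00362). DTX1, a target of NOTCH, was lower in SUDHL-1 than in SUPM2 (-1.05), Karpas299 (-1.13) and DEL (-0.96), with adjusted p between 0.000167 and 0.000484. After centring the DTX1 difference from SUPM2 was -0.64, and after quantile normalization that from DEL was -0.60. None of the 7 passed in SP against MP.

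For LEF1 and TOX, whose line means spanned at least 2, the genes of nearest profile over the 12 arrays were sought by root mean square distance after each gene was centred on its own mean. DNAJA4, a heat shock co-chaperone, was nearest to LEF1 at a distance of 0.45, with line means of 9.44 in SUDHL-1, 7.05 in SUPM2, 6.80 in Karpas299 and 5.01 in DEL. SNORD43, a small nucleolar RNA, followed at 0.60, with 11.27 in SUDHL-1, 8.88 in SUPM2, 8.29 in Karpas299 and 8.19 in DEL. In SUPM2 its SP minus MP was -1.11, against 0.54 for LEF1. FLG2, a protein of cornified skin, was nearest to TOX at 0.33, with a line mean of 7.93 in Karpas299 against 3.69 in SUDHL-1, 4.28 in SUPM2 and 4.50 in DEL. H1-1, a linker histone, followed at 0.36 with 9.21 in Karpas299 against 4.22, 5.17 and 4.89 in SUDHL-1, SUPM2 and DEL. H1-1 has close relatives among the linker histones, and its probe set may read them too.

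**Figure D5:**
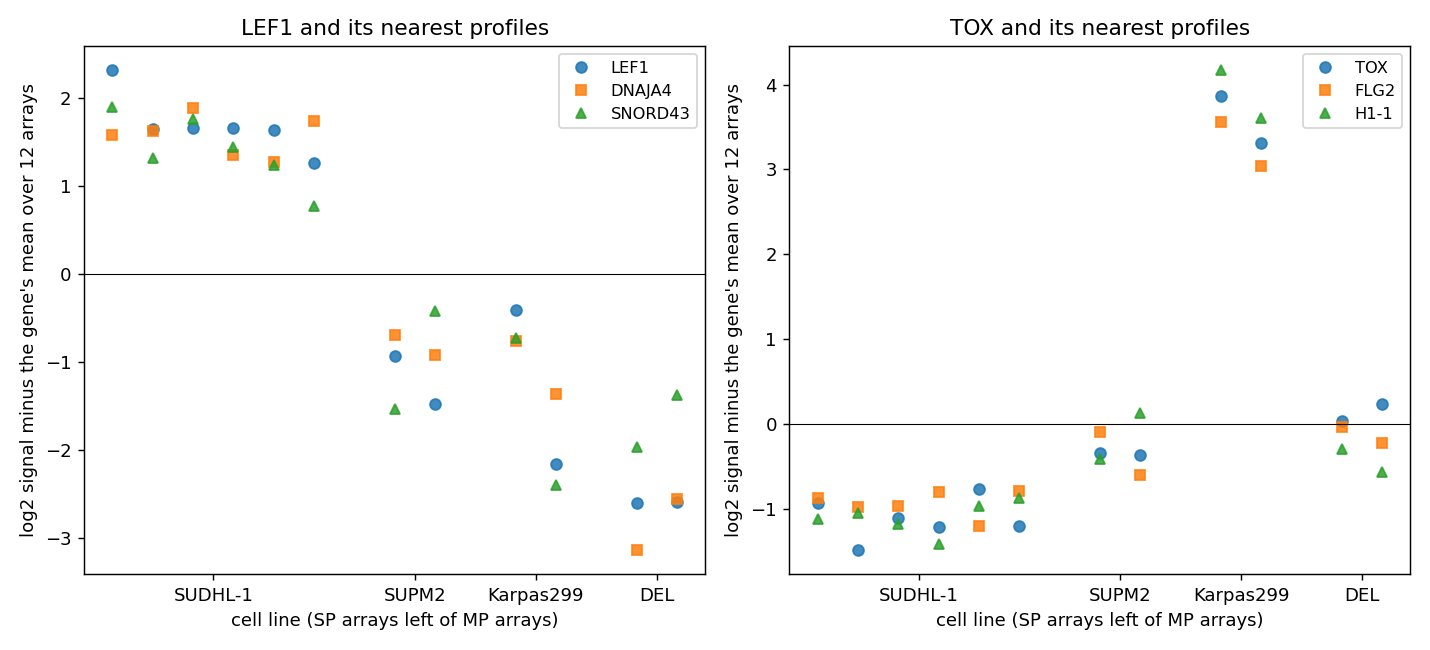
Log2 signal minus the gene's mean over the 12 arrays (vertical axis) by cell line, SP arrays left of MP arrays, for LEF1 with DNAJA4 and SNORD43 (left) and TOX with FLG2 and H1-1 (right). The genes beside LEF1 and TOX were picked for the smallest distance on these same arrays, so their likeness is by choice. Distances were 0.45 and 0.60 for LEF1 and 0.33 and 0.36 for TOX.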

How the data were processed

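Column-purified RNA of sorted SP and MP cells was amplified with a NuGEN Ovation Pico kit and hybridised to Affymetrix arrays, per the labels' protocols. The submitters' processing notes name RMA, without a version, for the deposited log2 values. The sources used here do not say whether RMA was run on all 12 arrays at once. Arrays carry no read depth, so their number limits the precision.

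Probe sets were named through the platform annotation, in which 19460 of 33297 had 1 gene symbol, 1754 several and 12083 none; several symbols named no gene. The probe set of highest mean stood for a gene, which left 18417 genes. limma 3.58.1 (R 4.3.3) tested SP against MP in 6 SUDHL-1 arrays, 1 difference per line over 4 lines, the difference between SUDHL-1 and the other lines, and 6 line pairs with population as a covariate in 12 arrays. Two-sided p-values were adjusted over all genes (Benjamini-Hochberg), with a threshold of 0.05. Fits were tested on simulated data. SP and MP arrays of a line counted as its replicates between lines. The genes and lists were chosen with earlier results of these data known. All 10 listed genes were to be named, and from each list up to 4 genes past the threshold, by smallest p, or up to 2 where none passed. Alternatives changed the scaling, the dim genes, the probe set rule, the variance model and the arrays included.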

Additional observations from a re-analysis of the deposited data

Results flagged for a closer look

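The SP minus MP difference of CD1A in DEL, 0.377 on the log2 scale (4.32 in SP, 3.94 in MP), stood apart from those of the other 3 lines, the nearest of which was 0.0359. The gap was 0.899 of the range over the 4 lines. It rests on 1 array of each population, and both values lay within the background range. The same search over 18 sets of values, 9 of line differences and 9 of SUDHL-1 arrays, found no other, and chance flags about 1 set in 20.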

How the results depend on the processing

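For SP against MP, 0 genes passed in all 3 comparisons under every alternative run, the replicate block of SUDHL-1 included (0 genes). Same-numbered SUDHL-1 SP and MP arrays did not deviate together, with correlations of -0.00374, -0.0774 and -0.132, so the numbers were not taken as pairs. The numbers of the other lines' arrays carry no pairing beyond the line. Of the 20 called differences of the 9 genes between lines, 10 passed under every alternative in which they were tested and 10 missed the threshold under at least 1; of 68 called differences of 32 other genes chosen for naming, 51 and 17 did. Of the 9 genes, CD1A, RAG1, RAG2, DNTT and TOX were left out by the filter on dim genes. Alternatives that left out an array or line have fewer samples; for the scaling alternatives the cause was not tested.

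The number of genes called moved in SUPM2 against Karpas299, SUPM2 against DEL and Karpas299 against DEL to 1255, 869 and 444 with the 6 arrays of these lines alone. With adjustment over all 6 pairs together it moved to 2388 in SUPM2 against DEL and 1756 in Karpas299 against DEL. With 1 array left out in turn it ran from 4423 to 8528 in SUDHL-1 against DEL, 5056 to 9271 in SUDHL-1 against Karpas299, 1051 to 2100 in SUPM2 against Karpas299, 665 to 1648 in SUPM2 against DEL and 428 to 1081 in Karpas299 against DEL. With keratin-associated protein genes as background, 1 gene in place of 3 was above it on all arrays.

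The following uncalled differences changed sign. After quantile normalization, CD1A in SUDHL-1 SP minus MP was -0.0116. In SUDHL-1 minus SUPM2, CD1A, DNTT and PTCRA were 0.292, 0.210 and 0.129, in SUDHL-1 minus Karpas299 PTCRA was 0.162, in SUDHL-1 minus DEL CD1A, PTCRA and RAG1 were 0.112, 0.303 and 0.0280, and in Karpas299 minus DEL RAG2 was -0.0518. After centring, CD1A in SUDHL-1 SP minus MP was -0.000229. In SUDHL-1 minus SUPM2, CD1A, DNTT and PTCRA were 0.275, 0.263 and 0.222, in SUDHL-1 minus Karpas299 PTCRA and RAG1 were 0.177 and 0.119, in SUDHL-1 minus DEL CD1A, PTCRA and RAG1 were 0.114, 0.302 and 0.267, and in SUPM2 minus Karpas299 PTCRA was -0.0443. Over the lines, SP minus MP was -0.0968 for TOX without Karpas299, and -0.0504 for RAG1 and 0.0671 for TCF12 without DEL.

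With 1 array left out in turn, these ranges crossed 0. In SUDHL-1 SP minus MP they were CD1A -0.0682 to 0.166, RAG1 -0.00316 to 0.0937, BCL11B -0.162 to 0.104, TOX -0.235 to 0.0433, PTCRA -0.0139 to 0.231 and TCF12 -0.33 to 0.0267. In SP minus MP of SUDHL-1 against that of the other lines they were BCL11B -0.115 to 0.151, RAG2 -0.0296 to 0.0202, CD1A -0.199 to 0.0349, PTCRA -0.148 to 0.0971 and TCF12 -0.282 to 0.0754. In SUDHL-1 minus Karpas299 the range was DNTT -0.0714 to 0.228, and in SUDHL-1 minus DEL the ranges were PTCRA -0.0953 to 0.0136, DNTT -0.00369 to 0.0599 and RAG1 -0.377 to 0.225. In SUPM2 minus Karpas299 they were TCF12 -0.388 to 0.56 and LEF1 -0.633 to 0.797, in SUPM2 minus DEL CD1A -0.269 to 0.0825 and TCF12 -0.199 to 0.749, and in Karpas299 minus DEL TCF12 -0.0563 to 0.434, BCL11B -0.0773 to 0.151, RAG1 -0.161 to 0.441, RAG2 -0.105 to 0.112 and DNTT -0.189 to 0.11.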
